A study of Mus musculus with 24 samples.

Results

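CD8+ conventional dendritic cells (cDC) were compared with CD11b+ cDC from the spleens of B6 mice given CpG-A, to find which differences between the subsets are present in activated cells. The comparison used 6 of the study's 24 expression arrays, namely the 3 CD8+ and the 3 CD11b+ arrays whose titles give B6 and CpG, and all probe sets with a single gene symbol, 21789 of 35556. The highest of a gene's probe sets stood for it, which gave 19938 genes, and 11365 of them exceeded the array median on at least 3 arrays and were tested. The groups, of 3 arrays each, were CD8+ cDC and CD11b+ cDC of C57BL/6 mice after CpG-A. The same 2 subsets of C57BL/6 mice after PBS, and of NOD/ShiLt mice after CpG-A, were set beside them. All animals were females aged 8 to 10 weeks, injected 12 h before their spleens were digested, and no allele, transgene or deletion is named for either strain. The CD11c+ cells were sorted by flow cytometry on CD8 and CD11b, and 5 ng of RNA was amplified, so every value describes a sorted bulk sample. The labels do not say whether animals were pooled or whether replicates came from separate mice, so the p-values cover the spread among these samples alone, and that spread may be technical.

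The 2 subsets differ in lineage and work. CD8+ cDC, also called cDC1, depend on the transcription factors IRF8 and BATF3, take up dying cells and present their antigens on MHC class I to CD8 T cells. CD11b+ cDC, also called cDC2, are known for presentation on MHC class II to CD4 T cells. CpG-A is an unmethylated DNA oligonucleotide that Toll-like receptor 9 (TLR9) recognises in endosomes, and it induces type I interferon, mostly from plasmacytoid dendritic cells (pDC), which then acts on the other cells of the spleen.

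Levels are log2 expression values, on which 1 unit is a 2-fold difference, and are compared between arrays for 1 gene at a time. A difference is the log2 level in CD8+ cDC minus that in CD11b+ cDC, and ± after a difference is its standard error in a limma fit of all 24 arrays (n = 3 arrays per group). Genes are called higher or lower where the Benjamini-Hochberg adjusted p of limma, taken over all tested genes, was under 0.05. The change with CpG is the difference after CpG minus the difference under PBS, and was tested in the same fit. Arrays of a group correlated at 0.978 to 0.986 in CD8+ cDC and at 0.981 to 0.989 in CD11b+ cDC after CpG. On the first principal component of the B6 arrays, which held 58.6% of the variance, all CpG arrays lay on the other side from the PBS arrays, and on the second, with 25.6%, the subsets were apart under both injections.

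The labelled subsets had the genes that name them. Cd8a, which encodes the CD8 alpha chain, had levels of 11.42, 11.42 and 11.71 in CD8+ cDC, against 8.45, 7.87 and 8.81 in CD11b+ cDC. That is a difference of 3.14 ± 0.26, adjusted p = 2.1e-09. Itgam, which encodes CD11b, had levels of 4.53, 5.08 and 5.15 in CD8+ cDC, against 6.61, 7.50 and 6.94 in CD11b+ cDC. The subsets differed by -2.10 ± 0.24, adjusted p = 3.21e-07. In both genes the groups of 3 arrays lay apart. The CD11b+ arrays also held transcripts of natural killer (NK) cells, lymphocytes that kill target cells and make interferon gamma: all 19 tested NK markers were lower in CD8+ cDC after CpG, with a median difference of -3.52, against 10 of 19 and a median of -0.75 under PBS. The mean level of the list was 5.88, 6.18 and 6.29 on the CD8+ arrays after CpG, against 9.06, 9.82 and 8.78 on the CD11b+ arrays. Under PBS it lay between 5.72 and 6.07 in CD8+ cDC and between 6.38 and 7.05 in CD11b+ cDC. In sorted bulk samples a different number of cells of a type and a different amount of RNA per cell cannot be told apart. The share of this NK signal in any other difference was not tested, and every difference after CpG in B6 was measured on these same arrays.

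**Figure D1:**
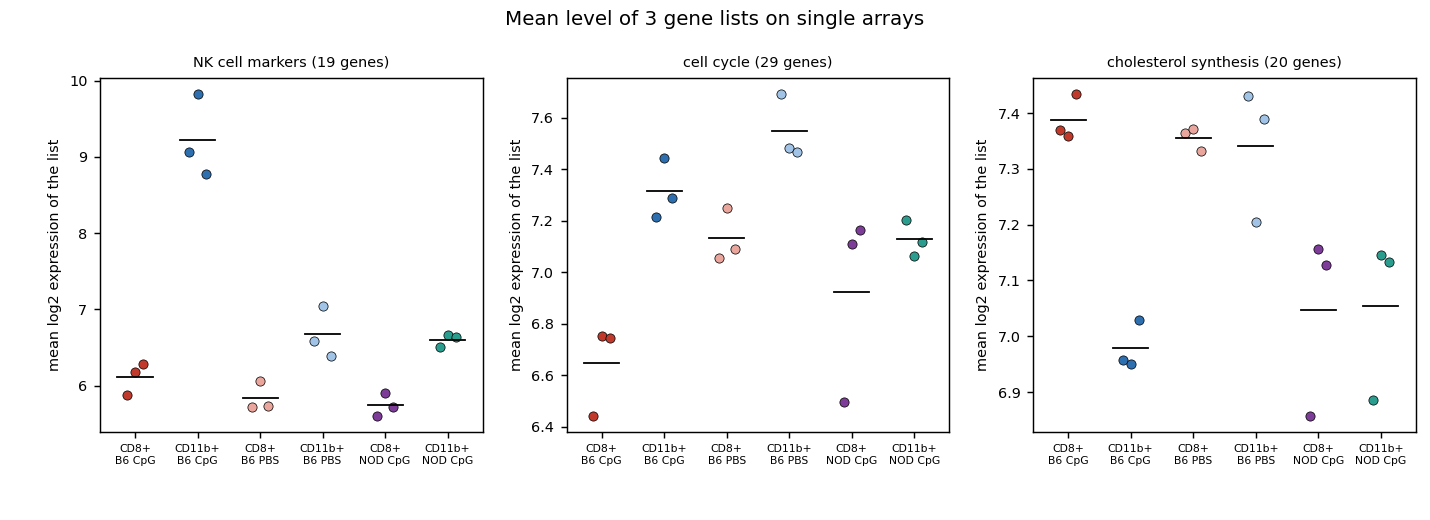
Mean log2 expression of 3 gene lists (vertical axes) on single arrays (points, with the group mean as a line) of CD8+ and CD11b+ cDC. The 3 CD11b+ arrays of B6 mice after CpG lie above all others for the NK markers, and the CD8+ arrays of B6 mice after CpG lie lowest, together with 1 NOD array, for the cell cycle list.

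After CpG, 4204 of 11365 genes differed between the subsets (37%). Of these, 1447 were higher (12.7%) and 2757 lower (24.3%) in CD8+ cDC, and with each array centred on its median the split was 2512 higher and 1813 lower, and after quantile normalization 2049 higher and 2147 lower, so the balance of the 2 directions depends on the scaling. Centring moved the median difference over all genes to 0.11, against -0.07 without it. Its effect is given with Tlr9, the lineage transcription factors, the MHC class I and the interferon-stimulated genes. Counts of other lists moved under the alternatives too. At least 2-fold were 313 of the higher genes (2.75% of all tested) and 532 of the lower genes (4.68%). Under PBS, 1075 genes were higher (9.46%) and 1375 lower (12.1%) in CD8+ cDC. The subset difference itself changed with CpG for 1502 genes (13.2%), upward for 658 (5.79%) and downward for 844 (7.43%). List counts given below are to be read beside these shares for the same comparison and direction.

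Many of the resting differences were present in activated cells. Of the genes higher under PBS, 515 were also higher after CpG, which is 47.9% of the PBS list and 35.6% of the CpG list. Of those lower under PBS, 893 were also lower after CpG, 64.9% of the PBS list and 32.4% of the CpG list. Among genes at least 2-fold apart under PBS, 187 of 295 higher genes (63.4%) and 298 of 364 lower genes (81.9%) passed in the same direction after CpG. A further 87 genes passed in both states with opposite sign, 29 of them higher and 58 lower after CpG. Genes that passed after CpG and not under PBS numbered 903 higher and 1806 lower, and for 336 and 422 of these the change with CpG passed its own test. Genes that passed under PBS and not after CpG numbered 502 higher and 453 lower, and the change passed for 211 and 146 of them.

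**Figure D2:**
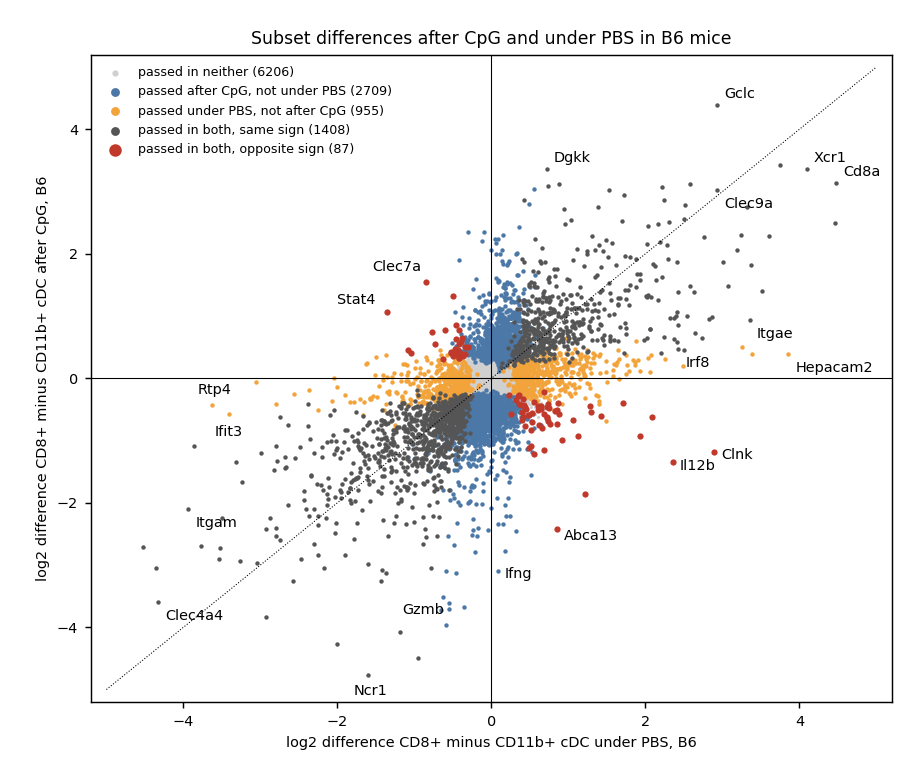
Each point is 1 of 11365 genes, with the log2 difference CD8+ minus CD11b+ cDC under PBS (horizontal) and after CpG (vertical) in B6 mice, coloured by which tests passed; the dotted line marks equal differences. Xcr1, Clec9a and Clec4a4 lie within 1 unit of the line, Hepacam2 and Rtp4 near 0 after CpG, and Il12b and Clnk on opposite sides of 0.

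The surface and sensing genes that mark CD8+ cDC stayed higher in them for the most part. Of 23 tested cDC1 markers 17 were higher and 0 lower after CpG, with a median difference of 1.25, against 22 higher and a median of 2.42 under PBS. Xcr1, the receptor for the chemokine XCL1, had levels of 9.32, 9.16 and 9.85 in CD8+ cDC, against 5.95, 5.98 and 6.31 in CD11b+ cDC. Its difference was 3.37 ± 0.22, adjusted p = 8.31e-11. Clec9a, a lectin that binds the exposed actin of dying cells, had levels of 10.32, 10.01 and 10.55 in CD8+ cDC, against 6.99, 7.30 and 7.49 in CD11b+ cDC. This gave a difference of 3.03 ± 0.17, adjusted p = 5.19e-12. Both genes kept the groups more than 2 units apart, and the change with CpG did not pass the test for either (-0.73 ± 0.31, adjusted p = 0.124 for Xcr1 and 0.10 ± 0.23, adjusted p = 0.836 for Clec9a). Naaa, a lysosomal amidase, was higher by 2.28 ± 0.25, Gcsam by 2.31 ± 0.27, Cd24a, a surface glycoprotein used to recognise the subset, by 2.53 ± 0.21, and Ppt1, a lysosomal thioesterase, by 1.84 ± 0.14.

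Other genes of the same list lost much of their subset difference, and the change passed in the downward direction for 13 of 23 and upward for 0. Itgae, which encodes the integrin chain CD103, had levels of 5.97, 5.73 and 6.17 in CD8+ cDC, against 5.08, 4.89 and 5.08 in CD11b+ cDC, and under PBS of 8.50, 8.15 and 8.44 in CD8+ cDC, against 4.69, 5.22 and 5.11 in CD11b+ cDC. Its difference was 0.94 ± 0.26, adjusted p = 0.0063 after CpG and 3.35 ± 0.26, adjusted p = 8.42e-10 under PBS, and the levels of the CD8+ arrays were lower after CpG than under PBS while those of the CD11b+ arrays overlapped. Hepacam2, an immunoglobulin superfamily gene, had levels of 4.40, 4.76 and 4.74 in CD8+ cDC, against 4.19, 4.24 and 4.32 in CD11b+ cDC, and under PBS of 8.91, 8.74 and 8.70 in CD8+ cDC, against 4.91, 5.10 and 4.78 in CD11b+ cDC. Its difference was 0.38 ± 0.17, adjusted p = 0.0861 after CpG, which did not pass, and 3.85 ± 0.17, adjusted p = 2.24e-13 under PBS. Cd207, which encodes the lectin langerin, had differences of 0.29 ± 0.24, adjusted p = 0.372 after CpG and 1.84 ± 0.24, adjusted p = 3.3e-06 under PBS. For Btla, a co-inhibitory receptor gene, they were 0.22 ± 0.20, adjusted p = 0.41 and 1.62 ± 0.20, adjusted p = 1.03e-06. The change with CpG was -3.47 ± 0.24, adjusted p = 3.97e-09 for Hepacam2, -1.55 ± 0.34, adjusted p = 0.00387 for Cd207 and -1.40 ± 0.28, adjusted p = 0.0015 for Btla.

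Of the genes that mark CD11b+ cDC, 17 of 21 were lower in CD8+ cDC and 1 higher after CpG, with a median difference of -1.46, against 20 lower, 1 higher and a median of -1.80 under PBS. Clec4a4, which encodes the inhibitory lectin DCIR2, had levels of 3.68, 3.54 and 3.70 in CD8+ cDC, against 6.98, 7.26 and 7.46 in CD11b+ cDC. The difference came to -3.59 ± 0.22, adjusted p = 3.17e-11. Cd4, the co-receptor carried by many splenic CD11b+ cDC, had levels of 5.61, 6.03 and 6.30 in CD8+ cDC, against 8.90, 8.74 and 9.0 in CD11b+ cDC. The difference was -2.90 ± 0.20, adjusted p = 1.64e-10. Sirpa, the receptor for the signal CD47, had levels of 7.73, 8.04 and 8.68 in CD8+ cDC, against 10.29, 10.24 and 10.54 in CD11b+ cDC. That is a difference of -2.21 ± 0.18, adjusted p = 2.32e-09. No array of one subset reached the other in these 3 genes, and their change with CpG did not pass (0.74 ± 0.31, adjusted p = 0.119, -0.44 ± 0.28, adjusted p = 0.339 and 0.16 ± 0.26, adjusted p = 0.745). Csf1r, the receptor of macrophage colony-stimulating factor, was lower, at -1.35 ± 0.26, and Esam, an adhesion molecule, at -1.18 ± 0.16. The difference of Itgam shrank, to -2.10 ± 0.24 after CpG against -3.94 ± 0.24 under PBS, with a change of 1.84 ± 0.34, adjusted p = 0.000703. The lectin gene Clec10a had 0.23 ± 0.28, adjusted p = 0.54 after CpG, against -1.63 ± 0.28, adjusted p = 8.45e-05 under PBS, with a change of 1.87 ± 0.39, adjusted p = 0.00234. Clec12a, an inhibitory lectin placed in this list, went against it: its levels were 8.71, 8.75 and 9.0 in CD8+ cDC, against 5.90, 6.38 and 6.56 in CD11b+ cDC, and its difference of 2.54 ± 0.21, adjusted p = 3.25e-09 was larger than the 1.03 ± 0.21 under PBS (change 1.51 ± 0.30, adjusted p = 0.00156).

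**Figure D3:**
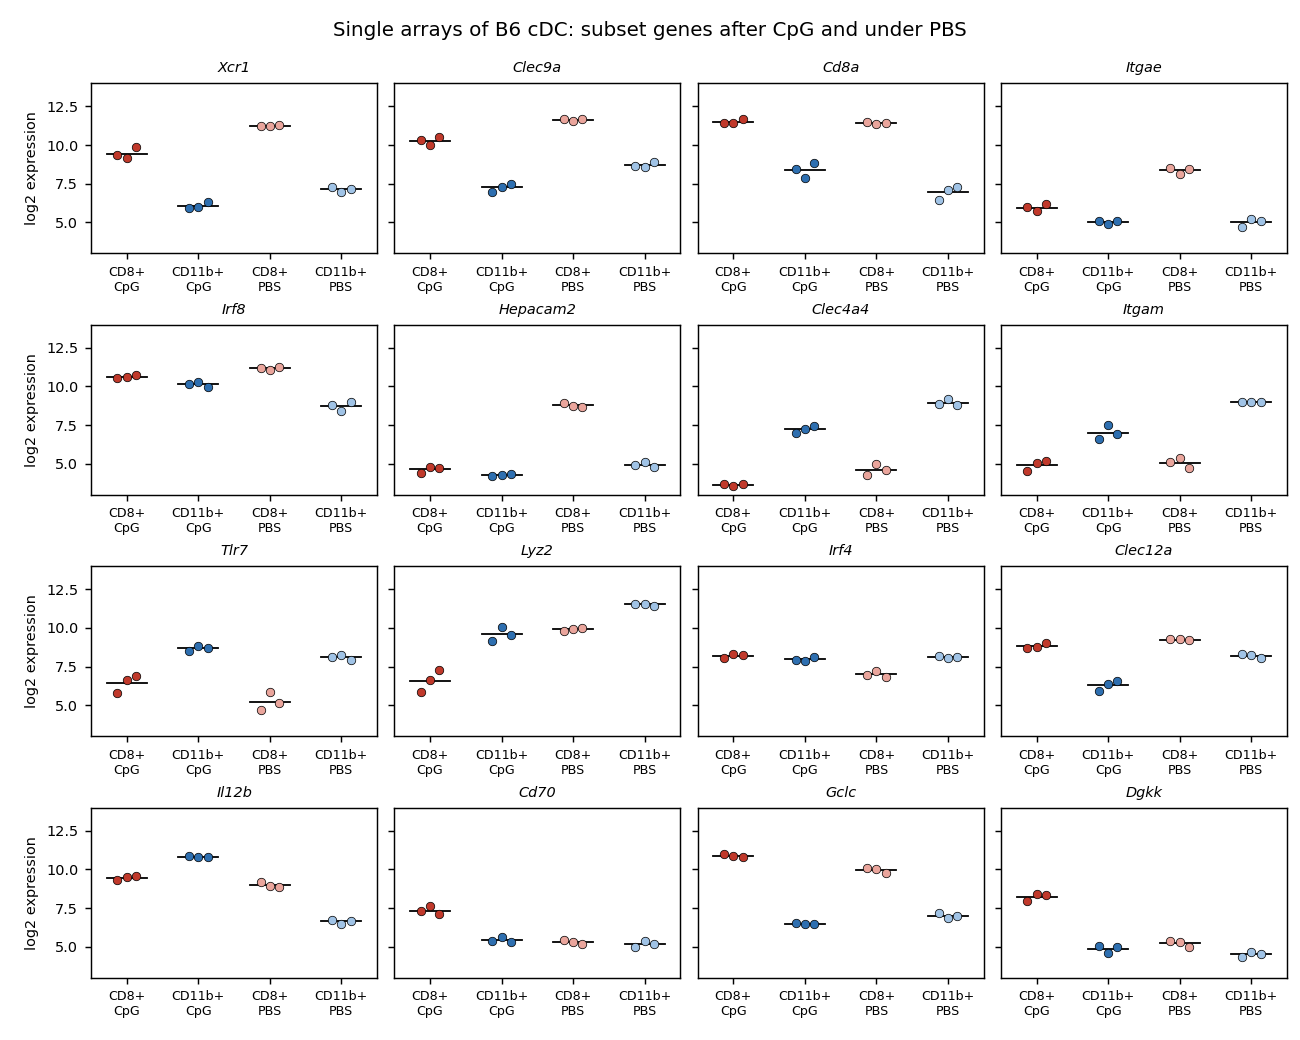
Log2 expression (vertical axes) of 16 genes on single arrays (points, with the group mean as a line) of B6 CD8+ and CD11b+ cDC after CpG and under PBS. Xcr1, Clec9a, Clec4a4 and Gclc are separate in both states, Itgae, Irf8 and Hepacam2 are closer together after CpG, Il12b changes sides, and Cd70 and Dgkk are high on the CD8+ CpG arrays.

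Among transcription factors of the dendritic cell lineages, 5 of 25 were higher and 10 lower after CpG (12.7% and 24.3% of all tested genes). The counts under PBS were the same, but 9 were higher after CpG with each array centred on its median. The differences of Irf8 and Irf4 shrank. Irf8, which CD8+ cDC need to develop, had levels of 10.52, 10.59 and 10.73 in CD8+ cDC, against 10.13, 10.31 and 9.96 in CD11b+ cDC, and under PBS of 11.17, 11.09 and 11.26 in CD8+ cDC, against 8.82, 8.43 and 9.0 in CD11b+ cDC. Its difference was 0.48 ± 0.14, adjusted p = 0.00863 after CpG and 2.42 ± 0.14, adjusted p = 6.58e-12 under PBS, a change of -1.94 ± 0.19, adjusted p = 5.92e-07. Without replicate 3 of the CD11b+ arrays the CpG difference of Irf8 no longer passed (adjusted p = 0.0547). Irf4, its counterpart in CD11b+ cDC, had levels of 8.07, 8.34 and 8.23 in CD8+ cDC, against 7.96, 7.88 and 8.10 in CD11b+ cDC, and under PBS of 6.95, 7.22 and 6.85 in CD8+ cDC, against 8.16, 8.07 and 8.15 in CD11b+ cDC. Its difference was 0.23 ± 0.14, adjusted p = 0.195 after CpG, which did not pass, and -1.12 ± 0.14, adjusted p = 1.12e-06 under PBS, a change of 1.35 ± 0.19, adjusted p = 4.91e-05. The CpG levels of both factors in the subset that had less of them at rest thus lay nearer to those of the other subset. The NK markers were high on the same CD11b+ arrays as the raised Irf8, and their part in its difference was not tested. Spib, an Ets factor of pDC and B cells, had 0.28 ± 0.19, adjusted p = 0.265 after CpG and -0.98 ± 0.19, adjusted p = 0.000496 under PBS (change 1.27 ± 0.27, adjusted p = 0.00316). Batf3 passed in neither state, at 0.11 ± 0.10, adjusted p = 0.417 and 0.21 ± 0.10, adjusted p = 0.145. Zeb2, a repressor active in CD11b+ cDC and NK cells, was lower, at -2.01 ± 0.18 after CpG and -1.82 ± 0.18 under PBS, and the change did not pass (-0.19 ± 0.26, adjusted p = 0.7). Runx3 was lower, at -1.42 ± 0.19 and Ikzf1, which encodes Ikaros, at -1.26 ± 0.13. NK cells express both, and the part of the NK signal in these 2 differences was not tested.

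Of 14 tested integrin genes, 7 were lower and 2 higher in CD8+ cDC after CpG (24.3% and 12.7% of all tested genes), against 4 and 3 under PBS. The leukocyte integrin chains Itgb2 and Itgal, which pair as LFA-1, had -1.92 ± 0.20, adjusted p = 1.06e-07 and -1.22 ± 0.22, adjusted p = 0.000137 after CpG, against -0.49 ± 0.20, adjusted p = 0.0947 and 0.14 ± 0.22, adjusted p = 0.751 under PBS. Itgax, which encodes CD11c, was lower, at -1.42 ± 0.18, and Itgb7 at -1.12 ± 0.15. NK cells carry LFA-1, and their markers were higher on the CD11b+ arrays after CpG (list means given above). Their part in the difference of any of these integrin genes was not tested.

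Among 20 lectins and scavenger receptors of antigen uptake, 6 were higher and 3 lower after CpG (12.7% and 24.3% of all tested genes). The counts were 6 and 8 under PBS. Clec7a, which encodes the beta-glucan receptor dectin-1, changed sides: its levels were 8.44, 9.15 and 8.44 in CD8+ cDC, against 6.96, 7.27 and 7.16 in CD11b+ cDC, and under PBS 7.73, 7.48 and 7.53 in CD8+ cDC, against 8.66, 8.23 and 8.38 in CD11b+ cDC. The difference was 1.55 ± 0.16, adjusted p = 9.86e-08 after CpG and -0.85 ± 0.16, adjusted p = 0.000365 under PBS, a change of 2.39 ± 0.23, adjusted p = 4.28e-07. Ly75, which encodes DEC-205, was higher by 1.25 ± 0.22, and Cd36, a scavenger receptor, by 2.28 ± 0.27. The low-density lipoprotein receptor relative Lrp1 had -0.23 ± 0.13, adjusted p = 0.168 after CpG and -1.22 ± 0.13, adjusted p = 1.22e-07 under PBS. The Fc receptor chain Fcer1g was lower, at -1.34 ± 0.16 and the high-affinity IgG receptor Fcgr1 at -1.09 ± 0.20. The part of the NK signal in both differences was not tested.

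The resting surplus of CD8+ cDC in MHC class I loading genes was mostly below the threshold after CpG. Of 15 genes 2 were higher and 1 lower, with a median of 0.15, against 12 higher, 0 lower and a median of 0.46 under PBS. The count depends on the scaling, since 11 passed with each array centred on its median, and 4 passed with the replicate number as a block. Tap2, a subunit of the peptide transporter, was higher by 0.65 ± 0.15, and Tapbpl, a peptide editor, by 0.54 ± 0.14. Nlrc5, the transactivator of MHC class I genes, had 0.20 ± 0.14, adjusted p = 0.278 after CpG and 0.80 ± 0.14, adjusted p = 0.000122 under PBS, and its change of -0.60 ± 0.20, adjusted p = 0.0458 no longer passed under 13 of 23 alternatives. B2m, the light chain of class I, had -0.00 ± 0.06, adjusted p = 0.963. Of 14 class II genes, 5 were lower and 1 higher (24.3% and 12.7% of all tested genes). The classical genes H2-Aa and H2-Eb1 had 0.04 ± 0.07, adjusted p = 0.7 and -0.01 ± 0.07, adjusted p = 0.943, while H2-Oa, a subunit of the class II editing inhibitor, was lower, at -1.17 ± 0.14 and H2-Eb2 at -1.52 ± 0.15. Lgmn, which encodes the protease legumain, had levels of 11.10, 11.31 and 11.16 in CD8+ cDC, against 10.21, 10.15 and 10.24 in CD11b+ cDC. The subsets differed by 0.99 ± 0.20, adjusted p = 0.00041, against -0.38 ± 0.20, adjusted p = 0.206 under PBS (change 1.36 ± 0.28, adjusted p = 0.0019).

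CD8+ cDC had less of most sensing genes that passed. Of 23 Toll-like receptors and adaptors, 12 were lower and 2 higher after CpG (24.3% and 12.7% of all tested genes), against 9 and 3 under PBS. Tlr7, the receptor of single-stranded RNA, had levels of 5.80, 6.61 and 6.91 in CD8+ cDC, against 8.49, 8.81 and 8.73 in CD11b+ cDC. Its difference was -2.24 ± 0.28, adjusted p = 1.27e-06. Tlr1, which pairs with TLR2 on lipopeptides, was lower, at -2.83 ± 0.18. Tlr3, the receptor of double-stranded RNA that marks CD8+ cDC, had levels of 8.41, 8.18 and 8.91 in CD8+ cDC, against 7.38, 7.54 and 7.64 in CD11b+ cDC, and under PBS of 10.43, 10.31 and 10.49 in CD8+ cDC, against 7.77, 7.32 and 7.55 in CD11b+ cDC. Its difference was 0.98 ± 0.22, adjusted p = 0.00132 after CpG and 2.87 ± 0.22, adjusted p = 8.62e-10 under PBS, a change of -1.88 ± 0.31, adjusted p = 0.000265. Tlr12, a sensor of parasite profilin, had 0.33 ± 0.22, adjusted p = 0.242 after CpG, against 2.04 ± 0.22, adjusted p = 1.36e-07 under PBS (change -1.70 ± 0.31, adjusted p = 0.000586). Tlr9 itself had -0.43 ± 0.11, adjusted p = 0.00401 after CpG and -0.34 ± 0.11, adjusted p = 0.0291 under PBS, and neither difference passed with each array centred on its median. Unc93b1, which escorts the endosomal receptors out of the endoplasmic reticulum, had levels of 9.59, 9.86 and 10.12 in CD8+ cDC, against 10.89, 10.79 and 11.07 in CD11b+ cDC. This gave a difference of -1.06 ± 0.13, adjusted p = 9.44e-07, against 0.03 ± 0.13, adjusted p = 0.933 under PBS. The change for Unc93b1 was -1.09 ± 0.18, adjusted p = 0.000318.

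Of 13 genes of cytosolic nucleic acid sensing, 4 were higher and 4 lower after CpG (12.7% and 24.3% of all tested genes). The counts were 0 and 5 under PBS. Aim2, which binds double-stranded DNA, had -0.99 ± 0.12, adjusted p = 1.11e-06 after CpG and 0.02 ± 0.12, adjusted p = 0.937 under PBS, and Sting1, the adaptor downstream of cyclic dinucleotides, was lower, at -1.13 ± 0.14. Tbk1, the kinase downstream of STING and MAVS, was higher by 0.68 ± 0.10. Of 18 inflammasome and IL-1 family genes, 11 were lower and 1 higher (2 with the replicate number as a block). Il1b, which encodes interleukin-1 beta, had levels of 7.10, 7.55 and 7.81 in CD8+ cDC, against 9.96, 10.21 and 9.90 in CD11b+ cDC. The difference came to -2.54 ± 0.24, adjusted p = 2.76e-08, against -0.71 ± 0.24, adjusted p = 0.0407 under PBS, where it no longer passed under 6 of 17 alternatives. Mefv, which encodes the inflammasome sensor pyrin, had levels of 5.67, 5.43 and 5.68 in CD8+ cDC, against 8.17, 8.08 and 8.53 in CD11b+ cDC. The difference was -2.66 ± 0.18, adjusted p = 1.05e-10, against -0.89 ± 0.18, adjusted p = 0.000513 under PBS. Both differences grew with CpG, with changes of -1.83 ± 0.35, adjusted p = 0.000931 for Il1b and -1.77 ± 0.25, adjusted p = 3.69e-05 for Mefv. Casp1, the protease that matures interleukin-1 beta, was lower, at -1.28 ± 0.14, and Il1rn, which encodes the receptor antagonist, at -1.49 ± 0.18.

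**Figure D4:**
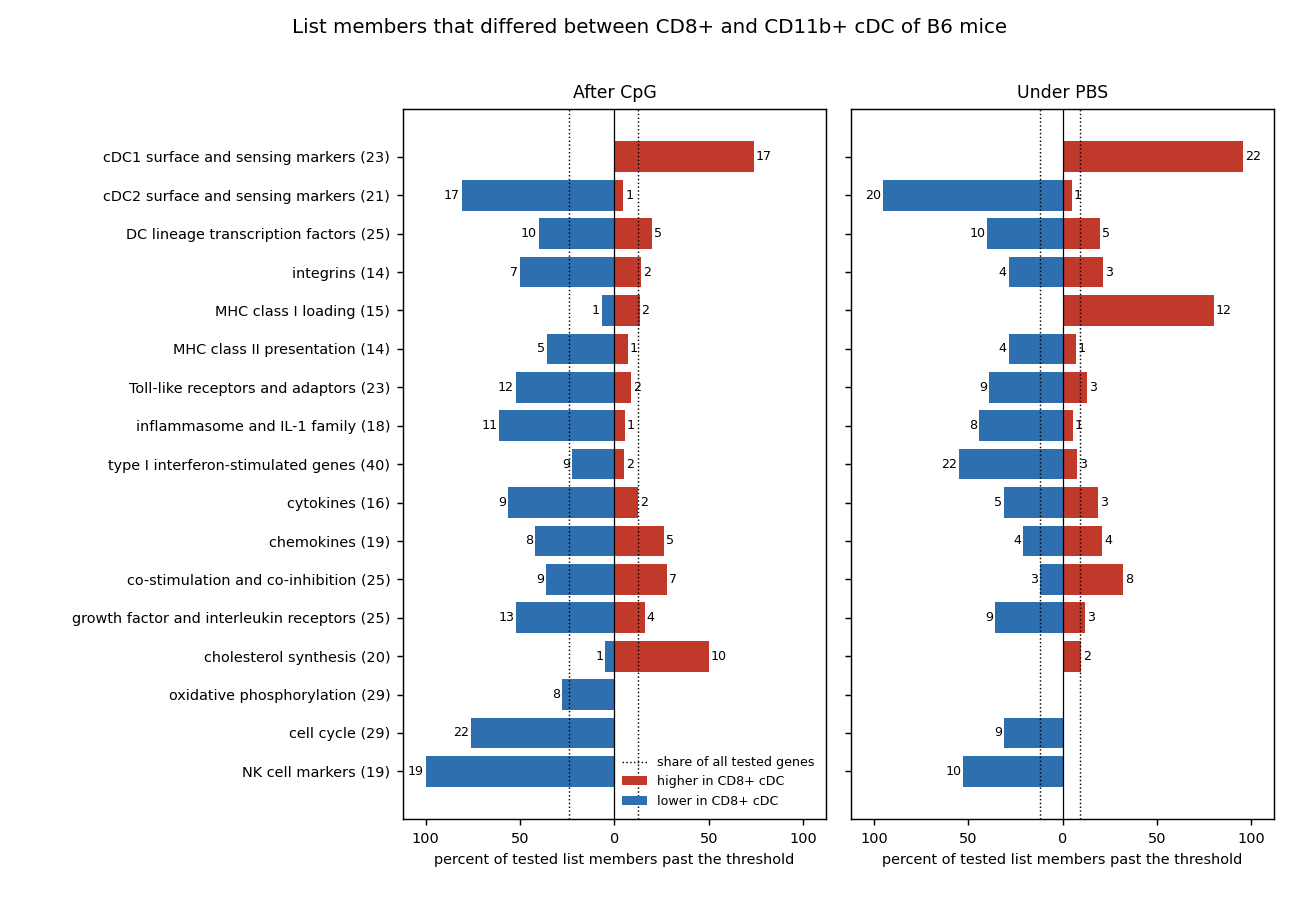
Percent of the tested members of 17 gene lists (tested members in brackets) that were higher (right) or lower (left) in CD8+ than in CD11b+ cDC of B6 mice, after CpG and under PBS; numbers beside bars are genes, and dotted lines mark the share of all tested genes. The cDC1 and cDC2 bars stay long after CpG, the interferon-stimulated and MHC class I bars shorten, and the cholesterol and cell cycle bars lengthen.

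Type I interferon-stimulated genes, lower in CD8+ cDC at rest, mostly did not pass the test between the subsets after CpG. Of 40 tested, 9 were lower and 2 higher after CpG, with a median of -0.11, against 22 lower, 3 higher and a median of -0.52 under PBS. The CpG shares were near or below those of all tested genes (24.3% lower, 12.7% higher). The change with CpG passed upward for 15 and downward for 0. The number lower after CpG moved with the processing, to 5 with median centring and 15 in a fit of the 6 arrays alone. Ifit3, an antiviral protein with tetratricopeptide repeats, had levels of 11.40, 11.55 and 11.51 in CD8+ cDC, against 11.98, 12.11 and 12.10 in CD11b+ cDC, and under PBS of 5.17, 6.40 and 5.71 in CD8+ cDC, against 8.99, 9.60 and 8.91 in CD11b+ cDC. Rtp4, a chaperone that restrains RNA viruses, had levels of 10.46, 10.77 and 10.63 in CD8+ cDC, against 11.01, 11.06 and 11.07 in CD11b+ cDC, and under PBS of 5.01, 6.37 and 5.72 in CD8+ cDC, against 9.41, 9.50 and 9.07 in CD11b+ cDC. For Oasl2, of the oligoadenylate synthetase family, the levels were 10.58, 10.44 and 10.43 in CD8+ cDC, against 10.78, 10.66 and 10.79 in CD11b+ cDC, and under PBS 5.45, 5.91 and 5.52 in CD8+ cDC, against 8.16, 8.35 and 8.06 in CD11b+ cDC. In these 3 genes the CpG arrays of both subsets were higher than the PBS arrays, and the CD8+ arrays were furthest from their own PBS level. After CpG the CD8+ arrays still lay below all CD11b+ arrays in each of the 3. The standard errors come from the fit of all 24 arrays, so they also hold the spread of the PBS arrays. The differences after CpG did not pass (-0.58 ± 0.25, adjusted p = 0.0716 for Ifit3, -0.42 ± 0.24, adjusted p = 0.17 for Rtp4 and -0.26 ± 0.16, adjusted p = 0.208 for Oasl2), and the changes with CpG did (2.83 ± 0.35, adjusted p = 8.7e-06, 3.20 ± 0.34, adjusted p = 9.85e-07 and 2.31 ± 0.22, adjusted p = 4.28e-07). Among the members that passed after CpG, Oas2 was lower, at -1.21 ± 0.18, Ifitm1, an antiviral membrane protein, at -1.81 ± 0.20 and Slfn8 at -0.88 ± 0.13. Oasl1, an inhibitor of IRF7 translation, was higher by 0.97 ± 0.20, adjusted p = 0.000601.

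**Figure D5:**
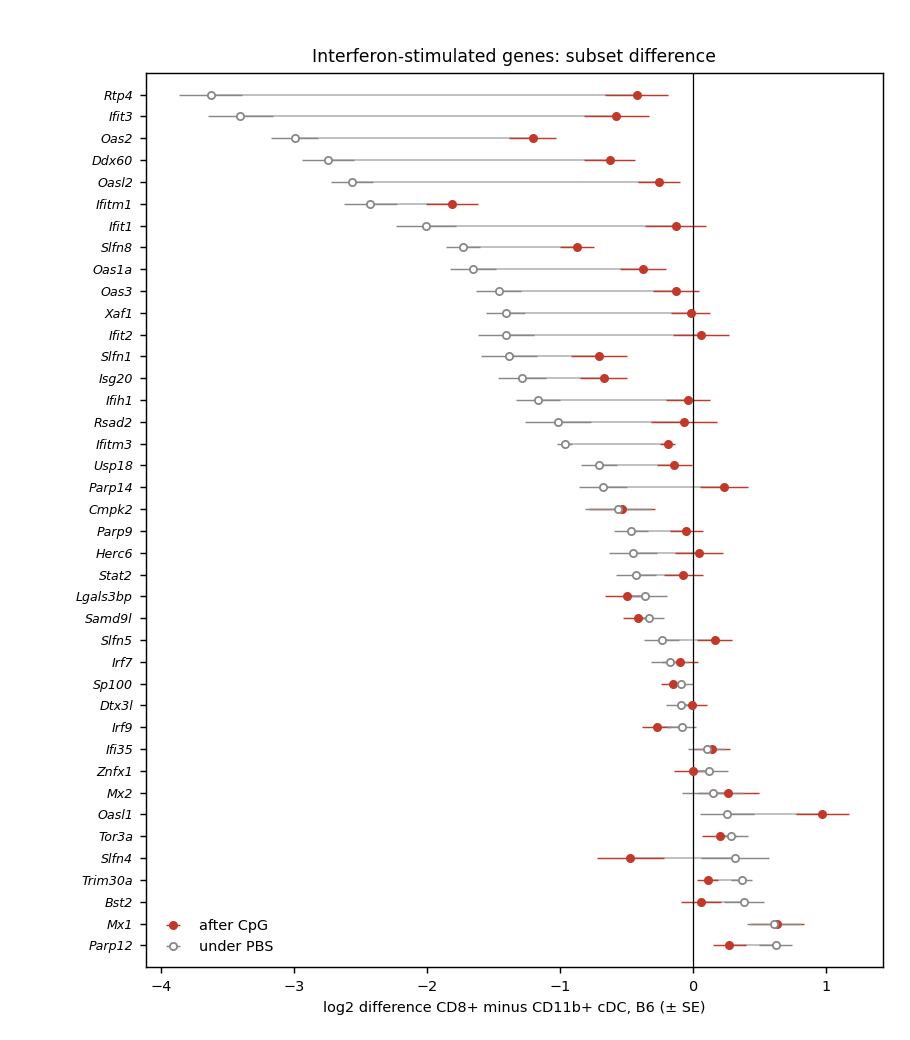
Log2 difference CD8+ minus CD11b+ cDC (horizontal axis, ± SE from the limma fit) of the 40 tested interferon-stimulated genes in B6 mice after CpG (filled) and under PBS (open), joined by lines. Rtp4, Ifit3, Oasl2 and Ddx60 lie 2 or more units closer to 0 after CpG than under PBS.

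The promoters of 3 genes whose subset difference changed are shown, picked among those with matches, because interferon-activated transcription factors are known to bind response elements in the promoters of such genes. They are RefSeq sequences of GRCm38.p6, 250 bases before to 50 after the gene start, on the plus strand, and capitals mark each match to GAAANNGAAA or to its reverse complement TTTCNNTTTC.
Ifit3, chr19:34583279-34583578: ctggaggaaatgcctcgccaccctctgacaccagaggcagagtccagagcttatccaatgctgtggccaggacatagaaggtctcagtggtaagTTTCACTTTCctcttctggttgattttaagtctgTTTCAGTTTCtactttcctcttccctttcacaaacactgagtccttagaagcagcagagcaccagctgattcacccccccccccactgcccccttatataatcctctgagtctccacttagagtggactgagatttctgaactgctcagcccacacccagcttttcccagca
Ifit1, chr19:34640639-34640938: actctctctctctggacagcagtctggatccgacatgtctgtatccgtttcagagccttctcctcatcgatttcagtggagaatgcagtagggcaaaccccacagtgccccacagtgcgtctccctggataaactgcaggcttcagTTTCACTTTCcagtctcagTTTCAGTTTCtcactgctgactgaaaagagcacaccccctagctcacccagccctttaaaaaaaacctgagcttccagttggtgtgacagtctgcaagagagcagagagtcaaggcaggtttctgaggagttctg
Ddx60, chr8:61927837-61928136: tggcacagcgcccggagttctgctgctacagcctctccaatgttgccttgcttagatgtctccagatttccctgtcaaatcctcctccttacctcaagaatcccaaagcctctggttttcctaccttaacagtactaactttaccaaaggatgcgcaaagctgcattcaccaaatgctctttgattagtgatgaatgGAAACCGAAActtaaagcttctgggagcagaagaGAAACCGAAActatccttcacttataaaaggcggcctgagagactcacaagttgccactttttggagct
Each of the 3 holds 2 matches, on the minus strand in Ifit3 and Ifit1 and on the plus strand in Ddx60, while the promoters of Oasl2, whose change passed too, and Oasl1 hold 0 matches. The motif, searched on both strands with overlaps counted, was in 13 of the 32 interferon-stimulated genes with a promoter in the table (40.6%), in 8 of 11 whose subset difference changed with CpG (72.7%) and in 5 of 21 whose difference did not pass that test (23.8%). Of all tested genes with a promoter it was in 352 of 9117 (3.86%), and of all promoters in the table in 1131 of 32851 (3.44%). Over all tested genes it was in 16 of 124 (12.9%) lower under PBS and not called after CpG, with the change called. For those higher under PBS it was in 7 of 175 (4.0%). Genes lower in both states had it in 47 of 697 (6.74%), and genes higher in both in 16 of 409 (3.91%). The list was chosen with earlier results of these data known, and why the shares differ was not tested. A match is a description of these letters and not a measured site. Ifit1 had -0.13 ± 0.23, adjusted p = 0.681 after CpG and -2.01 ± 0.23, adjusted p = 3.49e-07 under PBS. Ddx60, an RNA helicase of the same response, had levels of 9.81, 9.95 and 9.71 in CD8+ cDC, against 10.46, 10.39 and 10.50 in CD11b+ cDC, and under PBS of 4.99, 4.83 and 4.73 in CD8+ cDC, against 7.64, 7.64 and 7.49 in CD11b+ cDC, and its change was 2.12 ± 0.27, adjusted p = 1.44e-05. Its CD8+ arrays lay below all CD11b+ arrays in both states, so the subsets were closer after CpG but still apart.

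In interferon and JAK-STAT signalling, 8 of 28 genes were lower and 2 higher after CpG, shares near or below the 24.3% and 12.7% of all tested genes. The number higher ran from 2 to 9 under the alternatives tried. Stat4, which carries interleukin-12 signals, had levels of 10.95, 11.01 and 10.83 in CD8+ cDC, against 9.82, 10.05 and 9.71 in CD11b+ cDC, and under PBS of 6.18, 6.32 and 5.84 in CD8+ cDC, against 7.53, 7.58 and 7.28 in CD11b+ cDC, so that the subset with more of it differed between the 2 states (1.07 ± 0.27, adjusted p = 0.00288 after CpG, -1.35 ± 0.27, adjusted p = 0.000473 under PBS, change 2.42 ± 0.38, adjusted p = 0.000127). Ifngr1, the ligand-binding chain of the interferon gamma receptor, had levels of 8.28, 8.19 and 8.76 in CD8+ cDC, against 9.29, 9.59 and 9.41 in CD11b+ cDC. That is a difference of -1.02 ± 0.18, adjusted p = 8.68e-05, against 0.47 ± 0.18, adjusted p = 0.0619 under PBS. Its change was -1.49 ± 0.25, adjusted p = 0.000288. Irf1 was higher in CD8+ cDC by 0.91 ± 0.14 after CpG and 0.45 ± 0.14 under PBS, the second of which no longer passed under 3 of 17 alternatives, and the change did not pass (0.46 ± 0.20, adjusted p = 0.13). Of the interferon-inducible GTPases, 3 of 8 were lower, among them Gbp7 at -1.66 ± 0.21 and Gbp3 at -1.21 ± 0.17.

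Of 16 cytokine genes, 9 were lower and 2 higher in CD8+ cDC after CpG (24.3% and 12.7% of all tested genes), against 5 and 3 under PBS. Il12b, the p40 chain shared by interleukins 12 and 23, had levels of 9.32, 9.48 and 9.60 in CD8+ cDC, against 10.89, 10.77 and 10.80 in CD11b+ cDC, and under PBS of 9.17, 8.96 and 8.85 in CD8+ cDC, against 6.75, 6.48 and 6.67 in CD11b+ cDC. Its difference was -1.35 ± 0.17, adjusted p = 1.22e-06 after CpG and 2.36 ± 0.17, adjusted p = 2.39e-10 under PBS, a change of -3.71 ± 0.24, adjusted p = 1.83e-09. In both states the arrays of the subsets did not overlap, with CD11b+ cDC on the higher side after CpG. Il18 was lower, at -1.22 ± 0.26, Ltb, which encodes lymphotoxin beta, at -1.60 ± 0.22, and Flt3l, the growth factor of dendritic cells, at -1.04 ± 0.13. Ifng, which encodes interferon gamma and is a product of NK and T cells, had levels of 5.46, 6.11 and 6.04 in CD8+ cDC, against 8.88, 9.70 and 8.32 in CD11b+ cDC. The subsets differed by -3.10 ± 0.22, adjusted p = 3.09e-10, against 0.08 ± 0.22, adjusted p = 0.863 under PBS. Ifng was high on the same 3 CD11b+ arrays as the NK markers, whose part in this and the other cytokine differences was not tested.

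Of 19 chemokine genes, 5 were higher and 8 lower after CpG (12.7% and 24.3% of all tested genes), against 4 and 4 under PBS. Ccl3 and Ccl4, inflammatory chemokines that NK cells also make, were lower, at -3.83 ± 0.44 and -3.25 ± 0.32. Xcl1, the ligand of XCR1 and a known NK product, had levels of 7.66, 8.33 and 8.89 in CD8+ cDC, against 11.02, 11.36 and 10.83 in CD11b+ cDC. Its difference was -2.77 ± 0.27, adjusted p = 4.06e-08, against 0.17 ± 0.27, adjusted p = 0.744 under PBS. Ccl22, a ligand of CCR4, was higher by 1.04 ± 0.19 and Ccl19, a ligand of CCR7, by 1.22 ± 0.19. Cxcl9, a ligand of CXCR3 on effector T cells, had levels of 12.33, 12.15 and 12.31 in CD8+ cDC, against 11.84, 11.81 and 11.94 in CD11b+ cDC, and under PBS of 11.62, 11.74 and 11.67 in CD8+ cDC, against 9.61, 9.55 and 9.24 in CD11b+ cDC. Its difference was 0.40 ± 0.16, adjusted p = 0.0474 after CpG and 2.21 ± 0.16, adjusted p = 2.17e-10 under PBS, a change of -1.80 ± 0.22, adjusted p = 8.2e-06, and the CpG difference no longer passed under 9 of 17 alternatives. Of 16 migration receptors, 4 were higher and 6 lower, beside the same 12.7% and 24.3% of all tested genes. Ccr7, which guides mature dendritic cells to T cell zones, had 0.24 ± 0.19, adjusted p = 0.358 after CpG and 0.85 ± 0.19, adjusted p = 0.00224 under PBS. S1pr1, a receptor for egress, was higher at 1.29 ± 0.39, and Cxcr4 was lower, at -1.54 ± 0.14, adjusted p = 1.94e-08, against -0.06 ± 0.14, adjusted p = 0.838 under PBS. The NK markers were high on the same CD11b+ arrays as Cxcr4, which NK cells express too, and their part in its difference was not tested.

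Co-stimulatory genes differed in both directions after CpG, 7 of 25 higher and 9 lower (12.7% and 24.3% of all tested genes). Under PBS the counts were 8 and 3 (9.46% and 12.1% of all tested genes). Cd70, the ligand of CD27, had levels of 7.28, 7.62 and 7.12 in CD8+ cDC, against 5.39, 5.61 and 5.33 in CD11b+ cDC, and under PBS of 5.41, 5.32 and 5.15 in CD8+ cDC, against 4.95, 5.36 and 5.14 in CD11b+ cDC. Tnfsf9, the ligand of 4-1BB, had levels of 8.70, 9.25 and 9.08 in CD8+ cDC, against 7.24, 7.85 and 7.61 in CD11b+ cDC, and under PBS of 6.44, 6.33 and 6.39 in CD8+ cDC, against 6.70, 6.71 and 6.48 in CD11b+ cDC. For Cd80, a ligand of CD28 and CTLA-4, the levels were 10.53, 10.71 and 10.48 in CD8+ cDC, against 9.54, 9.55 and 9.53 in CD11b+ cDC, and under PBS 8.45, 8.57 and 8.68 in CD8+ cDC, against 8.73, 8.60 and 8.77 in CD11b+ cDC. All 3 were higher on the CD8+ arrays after CpG, with differences of 1.89 ± 0.16, adjusted p = 2.58e-09 for Cd70, 1.44 ± 0.17, adjusted p = 6.94e-07 for Tnfsf9 and 1.04 ± 0.16, adjusted p = 2.2e-05 for Cd80. None of them passed under PBS, at 0.14 ± 0.16, adjusted p = 0.607, -0.24 ± 0.17, adjusted p = 0.38 and -0.13 ± 0.16, adjusted p = 0.651. Their changes with CpG were 1.75 ± 0.22, adjusted p = 1.13e-05, 1.68 ± 0.24, adjusted p = 5.47e-05 and 1.17 ± 0.23, adjusted p = 0.00117. Cd86, the partner of Cd80, had 0.40 ± 0.13, adjusted p = 0.0164 after CpG and 1.72 ± 0.13, adjusted p = 4.64e-10 under PBS (change -1.32 ± 0.18, adjusted p = 2.95e-05), and the CpG difference no longer passed without replicate 2 of either subset (highest adjusted p = 0.0962). Cd274 and Pdcd1lg2, which encode the ligands of PD-1, had 0.21 ± 0.19, adjusted p = 0.397 and 0.34 ± 0.19, adjusted p = 0.175 after CpG, against -1.10 ± 0.19, adjusted p = 0.000105 and -1.50 ± 0.19, adjusted p = 2.26e-06 under PBS. Cd40 and Cd83 did not pass after CpG (0.26 ± 0.12, adjusted p = 0.106 and 0.21 ± 0.10, adjusted p = 0.11). Lag3, a ligand of MHC class II, had -1.21 ± 0.17, adjusted p = 6.28e-06 after CpG and 0.55 ± 0.17, adjusted p = 0.0228 under PBS, the second of which no longer passed under 4 of 17 alternatives. Tigit, Tnfrsf9 and Cd48 were lower, at -1.66 ± 0.25, -1.51 ± 0.12 and -1.30 ± 0.21. NK cells, whose markers were high on the same CD11b+ arrays, express these genes too, and their part in the differences was not tested.

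Receptors of growth factors and interleukins were lower in CD8+ cDC for 13 of 25 and higher for 4 after CpG. Of all tested genes 24.3% were lower and 12.7% higher. Flt3, the receptor that sustains dendritic cells, was higher by 0.97 ± 0.14 and Il15ra, which presents interleukin-15, by 0.88 ± 0.23. Kit was lower, at -0.95 ± 0.15, Csf3r at -1.12 ± 0.16 and Il6ra at -0.77 ± 0.15. Il2rb and Il18rap, both receptor chains of NK cells, had -3.70 ± 0.31, adjusted p = 3.66e-09 and -2.55 ± 0.17, adjusted p = 1.64e-10, against -0.55 ± 0.31, adjusted p = 0.25 and -0.85 ± 0.17, adjusted p = 0.000738 under PBS.

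Inhibitors within the NF-kB pathway were among the genes that differed after CpG and not at rest. Of 20 NF-kB genes, 5 were higher and 3 lower (12.7% and 24.3% of all tested genes), against 0 and 6 under PBS (9.46% and 12.1%). Nfkbie, an inhibitor of NF-kB dimers, had 0.61 ± 0.16, adjusted p = 0.00369 after CpG and -0.32 ± 0.16, adjusted p = 0.167 under PBS, and Tnip1, a partner of A20, had 0.67 ± 0.11, adjusted p = 3.15e-05 and -0.28 ± 0.11, adjusted p = 0.0659. The changes were 0.93 ± 0.22, adjusted p = 0.00633 and 0.95 ± 0.15, adjusted p = 0.000162. Bcl3 and Nfkbiz, nuclear members of the inhibitor family, were lower, at -1.13 ± 0.13 and -1.02 ± 0.19, and the subunit gene Relb had -0.05 ± 0.15, adjusted p = 0.832 after CpG, against -0.73 ± 0.15, adjusted p = 0.00098 under PBS. Of immediate-early and stress genes, 2 of 24 (4 with the replicate block) were higher and 5 lower, near the shares of all tested genes, with Dnajb1, a heat shock co-chaperone, at 1.07 ± 0.19, adjusted p = 8.68e-05 after CpG and -0.17 ± 0.19, adjusted p = 0.601 under PBS.

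Of 20 cholesterol synthesis genes tested, 10 were higher and 1 lower in CD8+ cDC after CpG, beside 12.7% and 24.3% of all tested genes. The counts stood against 2 higher and 0 lower under PBS, and the change passed upward for 6 and downward for 1. Idi1, the isopentenyl diphosphate isomerase, had levels of 10.02, 9.93 and 9.94 in CD8+ cDC, against 7.99, 8.17 and 8.19 in CD11b+ cDC, and under PBS of 7.77, 7.76 and 7.63 in CD8+ cDC, against 7.60, 7.33 and 7.59 in CD11b+ cDC. Hmgcs1, which makes HMG-CoA at the start of the pathway, had levels of 9.03, 8.97 and 8.91 in CD8+ cDC, against 7.99, 7.64 and 7.98 in CD11b+ cDC, and under PBS of 8.21, 7.93 and 7.85 in CD8+ cDC, against 8.28, 7.87 and 8.49 in CD11b+ cDC. The CD8+ arrays were above all CD11b+ arrays after CpG in both genes, with differences of 1.85 ± 0.14, adjusted p = 1.03e-09 for Idi1 and 1.10 ± 0.16, adjusted p = 7.89e-06 for Hmgcs1. Sqle, which oxidises squalene, was higher by 1.06 ± 0.14, adjusted p = 2.8e-06, against 0.09 ± 0.14, adjusted p = 0.726 under PBS. The mean level of the list was 7.37, 7.36 and 7.44 on the CD8+ arrays after CpG, against 6.96, 6.95 and 7.03 on the CD11b+ arrays, and under PBS 7.36, 7.37 and 7.33 against 7.43, 7.20 and 7.39.

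The leukotriene and prostaglandin genes had 1 higher and 5 lower of 15 after CpG, beside 12.7% and 24.3% of all tested genes. Pla2g7, which degrades platelet-activating factor, was lower, at -2.03 ± 0.25, Lta4h, which makes leukotriene B4, at -1.30 ± 0.21 and Pla2g4a, which releases arachidonic acid, at -1.26 ± 0.14. Of 13 tryptophan, arginine and redox enzyme genes, a separate list, 1 was higher and 7 were lower after CpG (12.7% and 24.3% of all tested genes). The median was -0.45, and the number higher ran from 0 to 2 under the alternatives. Arg2, a mitochondrial arginase, had levels of 7.57, 8.57 and 7.54 in CD8+ cDC, against 6.52, 6.04 and 6.37 in CD11b+ cDC. This gave a difference of 1.58 ± 0.23, adjusted p = 1.18e-05, against 0.09 ± 0.23, adjusted p = 0.851 under PBS. Kmo, which hydroxylates kynurenine, was lower, at -1.41 ± 0.21, adjusted p = 1.48e-05, against -0.27 ± 0.21, adjusted p = 0.434 under PBS. Of 19 glycolysis genes, 4 were lower and 1 higher (3 with the replicate block); of 18 ribosomal protein genes, 1 was lower (2 with the block) and 3 were higher. These shares lay near or below those of all tested genes, but the number of higher ribosomal protein genes ran from 1 to 11 under the alternatives. Subunits of oxidative phosphorylation were lower for 8 of 29 and higher for 0, with a median of -0.31, against 0 that passed under PBS. The share lower after CpG was near the 24.3% of all tested genes, and the count was 1 without replicate 1 of the CD8+ arrays, 3 without replicate 2 of the CD11b+ arrays and 13 with the replicate number as a block, so it rests on single arrays.

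Cell cycle genes were lower in CD8+ cDC for 22 of 29 and higher for 0 after CpG, with a median of -0.67. Under PBS 9 were lower and 0 higher, with a median of -0.49. Of all tested genes 24.3% were lower after CpG and 12.1% under PBS. The count of lower genes after CpG was 14 without replicate 1 of the CD8+ arrays and 16 without replicate 2 of the CD11b+ arrays. Kif11, a motor of the mitotic spindle, had levels of 5.52, 6.04 and 5.61 in CD8+ cDC, against 6.86, 7.22 and 6.97 in CD11b+ cDC. The difference came to -1.29 ± 0.20, adjusted p = 2.18e-05. Mki67, which encodes the proliferation marker Ki-67, was lower, at -0.94 ± 0.21, adjusted p = 0.00107, and Rrm1, a ribonucleotide reductase subunit, at -1.06 ± 0.23, adjusted p = 0.000928. The list mean was 6.44, 6.75 and 6.75 on the CD8+ arrays, against 7.21, 7.44 and 7.29 on the CD11b+ arrays. The change of the subset difference with CpG passed for 0 cell cycle genes downward and 0 upward, and the NK markers were high on the same CD11b+ arrays; their part in this difference was not tested. Of the cell death genes, 7 of 18 were lower and 3 higher after CpG (24.3% and 12.7% of all tested genes). Fas, a death receptor, was higher at 1.13 ± 0.26 and Bcl2l1, a survival gene, at 0.62 ± 0.16, while Bcl2 was lower, at -1.81 ± 0.24, adjusted p = 2.26e-06, against -0.28 ± 0.24, adjusted p = 0.482 under PBS. NK cells also express Bcl2 and their markers were high on the same CD11b+ arrays, with a part in its difference that was not tested.

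Single NK genes showed the same arrays. Ncr1, which encodes the receptor NKp46, had levels of 5.13, 5.21 and 5.10 in CD8+ cDC, against 9.92, 10.49 and 9.33 in CD11b+ cDC, and under PBS of 4.54, 5.12 and 4.56 in CD8+ cDC, against 6.13, 6.78 and 6.12 in CD11b+ cDC. Gzmb, which encodes granzyme B, had levels of 7.56, 8.81 and 8.50 in CD8+ cDC, against 11.83, 12.37 and 11.68 in CD11b+ cDC, and under PBS of 4.88, 5.39 and 5.03 in CD8+ cDC, against 5.13, 6.03 and 5.23 in CD11b+ cDC. Prf1, which encodes perforin, had levels of 6.67, 6.48 and 6.65 in CD8+ cDC, against 10.30, 11.33 and 10.04 in CD11b+ cDC, and under PBS of 5.89, 6.14 and 6.06 in CD8+ cDC, against 6.55, 6.95 and 6.35 in CD11b+ cDC. The 3 CD11b+ arrays after CpG lay above all other B6 arrays in each of these genes, and the differences were -4.77 ± 0.27, adjusted p = 7.68e-12 for Ncr1, -3.67 ± 0.29, adjusted p = 1.3e-09 for Gzmb and -3.96 ± 0.22, adjusted p = 7.96e-12 for Prf1. Markers of other cell types passed in both directions. Of 8 T cell genes 4 were higher and 1 lower, of 11 B cell genes 0 were higher and 0 lower, and of 13 red pulp macrophage genes 1 was higher and 1 lower (2 lower with the block). Of 9 pDC genes 2 were higher and 3 lower, with a median difference of 0.26. None of the 4 monocyte and 5 neutrophil genes tested was higher, and 3 and 1 of them were lower. Siglech, the defining receptor of pDC, had 0.26 ± 0.19, adjusted p = 0.285 after CpG and 1.24 ± 0.19, adjusted p = 1.73e-05 under PBS.

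Outside the lists, the largest differences in favour of CD8+ cDC included genes not known as subset markers. Gclc, the catalytic subunit of the enzyme that starts glutathione synthesis, had the largest difference of all genes in that direction: its levels were 11.01, 10.85 and 10.78 in CD8+ cDC, against 6.50, 6.47 and 6.49 in CD11b+ cDC, and under PBS 10.09, 10.00 and 9.77 in CD8+ cDC, against 7.21, 6.86 and 6.97 in CD11b+ cDC. The difference was 4.39 ± 0.16, adjusted p = 1.47e-14 after CpG and 2.94 ± 0.16, adjusted p = 4.77e-12 under PBS, a change of 1.46 ± 0.23, adjusted p = 0.000158. Dgkk, a diacylglycerol kinase, had levels of 7.93, 8.41 and 8.31 in CD8+ cDC, against 5.05, 4.58 and 4.96 in CD11b+ cDC, and under PBS of 5.38, 5.32 and 5.00 in CD8+ cDC, against 4.32, 4.68 and 4.54 in CD11b+ cDC. Zfp189, a zinc finger gene, had levels of 9.85, 10.13 and 9.71 in CD8+ cDC, against 6.92, 6.78 and 6.88 in CD11b+ cDC, and under PBS of 6.67, 6.75 and 7.02 in CD8+ cDC, against 6.29, 5.95 and 6.56 in CD11b+ cDC. In both genes the CD8+ CpG arrays stood above the other B6 arrays, with changes of 2.64 ± 0.25, adjusted p = 3.56e-07 for Dgkk and 2.49 ± 0.29, adjusted p = 4.52e-06 for Zfp189. Fgfbp3, a fibroblast growth factor binding protein, and Arhgap8 were higher by 3.10 ± 0.19 and 3.12 ± 0.21 after CpG, against 0.74 ± 0.19 and 0.88 ± 0.21 under PBS. Ccng2, an unconventional cyclin, was higher by 3.03 ± 0.18, and the orphan receptor gene Gpr141b by 3.43 ± 0.23.

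Several genes lost or turned a resting difference. P2ry14, a receptor of UDP-glucose, had 0.51 ± 0.23, adjusted p = 0.0827 after CpG and 3.25 ± 0.23, adjusted p = 1.42e-10 under PBS, and Clec4b2, a lectin of the Clec4 cluster, had 0.39 ± 0.17, adjusted p = 0.0789 and 3.38 ± 0.17, adjusted p = 1.14e-12. Clnk, an adaptor of the SLP-76 family, had levels of 5.53, 5.55 and 5.88 in CD8+ cDC, against 6.64, 7.82 and 6.04 in CD11b+ cDC, and under PBS of 8.42, 7.89 and 8.29 in CD8+ cDC, against 5.23, 5.41 and 5.31 in CD11b+ cDC. Its difference was -1.19 ± 0.28, adjusted p = 0.00222 after CpG and 2.89 ± 0.28, adjusted p = 4.16e-08 under PBS, so that CD11b+ cDC were on the higher side after CpG, with a change of -4.07 ± 0.40, adjusted p = 5.14e-07. Replicate 2 of the CD11b+ arrays was the highest of its group, and without it the CpG difference was -0.69 and still passed (adjusted p = 0.0223). The NK list mean was highest on that array too, and lowest on the one with the least Clnk; the part of the NK signal in the turn was not tested.

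The comparison in NOD mice shared no array with that in B6 mice, but both came from the fit that pools the spread of all 24 arrays. It gave much the same picture for large differences. After CpG, 1632 genes were higher (14.4%) and 2711 lower (23.9%) in NOD CD8+ cDC. In a fit of only the groups compared, 58.6% of these NOD calls held in the same direction. Of the 313 genes at least 2-fold higher in B6 CD8+ cDC 292 were also higher in NOD (93.3%), and of the 532 at least 2-fold lower 418 were lower in NOD (78.6%). Of all genes that passed in B6, 991 of the higher (68.5%) and 1709 of the lower (62%) passed in the same direction in NOD. Xcr1 differed by 4.23 ± 0.22 in NOD mice, Clec9a by 2.77 ± 0.17, Gclc by 3.73 ± 0.16 and Il12b by -1.69 ± 0.17. The subset difference itself differed between B6 and NOD for 595 genes (5.24%), 315 more positive (2.77%) and 280 more negative in B6 (2.46%).

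The NK markers differed less between the subsets in NOD mice. Of 19 tested, 11 were lower in NOD CD8+ cDC, and the test of the strain difference passed for 14, all more negative in B6. The list mean in NOD mice after CpG lay between 5.61 and 5.91 in CD8+ cDC and between 6.51 and 6.66 in CD11b+ cDC. Cholesterol synthesis genes were more positive in B6 for 6 of 20 and more negative for 0, with Hmgcs1 at -0.12 ± 0.16, adjusted p = 0.581 in NOD and a strain difference of 1.22 ± 0.22, adjusted p = 0.00135. Irf8 had levels in NOD mice after CpG of 10.71, 10.96 and 11.05 in CD8+ cDC, against 8.91, 8.81 and 8.97 in CD11b+ cDC. Its difference in NOD was 2.01 ± 0.14, adjusted p = 7.69e-11, against 0.48 ± 0.14 in B6, and the strain difference of -1.53 ± 0.19, adjusted p = 2.1e-05 passed. Itgae had 2.60 ± 0.26, adjusted p = 3.19e-08 in NOD, with a strain difference of -1.65 ± 0.37, adjusted p = 0.00764 that no longer passed in a fit of only the groups compared (adjusted p = 0.0724). Clec7a had -0.16 ± 0.16, adjusted p = 0.463 in NOD, a strain difference of 1.71 ± 0.23, adjusted p = 4.32e-05. The fit of NOD CD8+ cDC rests on 3 arrays that lie further apart than those of B6, and the number of strain differences ran from 142 to 837 more positive and from 124 to 996 more negative in B6 with the way the arrays were fitted and weighted.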

How the data were processed

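The 24 arrays were deposited as log2 values, made by the authors in Partek using RMA, as the submitters' processing notes state, with the version not given in the sources used here. They ran from 1.92 to 14.1, with array medians of 5.75 to 5.85, and no further normalization was applied. The array model in the labels does not match the probe set identifiers, which fit the annotation of a whole-transcript mouse gene array, so it is not settled here. The annotation listed 23410 probe sets, 21789 of them with 1 symbol and 1621 with several, and 12146 were unnamed; 21698 matched RefSeq by gene ID. In R 4.3.3, limma 3.58.1 fitted a mean for each of 8 groups (16 residual degrees of freedom), with eBayes and a mean trend, and 5 contrasts were tested two-sided, adjusted by Benjamini-Hochberg within each. An exact permutation test of 3 against 3 arrays cannot go below p = 0.1 and was not used.

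The 40 gene lists and all members were chosen with earlier results of these data known. Genes named are members of these lists, the 20 highest and 20 lowest called genes after CpG, the 15 highest and lowest of the change with CpG, the 8 largest of each class of kept, gained, lost or turned differences, and the 5 highest and lowest of the strain difference. Genes whose call was lost in some alternative were mostly passed over, or stand beside that result; this selection followed a look at the values. Same-numbered arrays of the 2 subsets deviated together after CpG in B6 (r of 0.446, 0.252 and 0.133) and in the other pairs compared (0.133 to 0.349). Arrays of unlike number ran from -0.337 to 0.147 after CpG in B6, the last above the 0.133 of replicate 3. Whether the replicate numbers from the titles pair the arrays is not settled, since what they stand for is not stated. The main fit left them out, and they enter as a block among the alternatives. In data simulated for the CpG difference over 11365 genes, the subsets were equal except for 50 genes at each size of change. There 94% of genes raised by 1 on the log2 scale and 36% of those raised by 0.5 were recovered, with 12 false calls. In the measured data 4204 genes passed, so the threshold on p differs and these rates do not carry over to it. The number of arrays limits the precision. Probes shared by near-identical relatives, such as the Klra, Klrb1, Gbp, Slfn and Apol7 genes, leave their assignment uncertain.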

Additional observations from a re-analysis of the deposited data

Results flagged for a closer look

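The subset difference after CpG was tested between B6 and NOD mice, and 315 genes were more positive and 280 more negative in B6. Of all tested genes these are 2.77% and 2.46%. Among the lists, 14 of 19 NK markers and 5 of 23 cDC1 markers were more negative in B6, and 6 of 20 cholesterol synthesis genes were more positive. Of 25 co-stimulation genes, 5 were more negative and 2 more positive. Under the alternatives the more negative counts ran from 5 to 14 for NK, 3 to 8 for cDC1 and 2 to 7 for co-stimulation genes. The more positive cholesterol count ran from 4 to 10. In the values that follow, each is the B6 difference minus the NOD difference on the log2 scale, with an adjusted p of limma under 0.05. None of the causes was tested.

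Genes of NK cells and genes that NK cells also express were more negative in B6, at -4.42 for Klrb1c, -3.71 for Klra8, -3.67 for Klrc1, -3.61 for Ncr1, -3.26 for Ifng, -3.23 for Xcl1, -3.11 for Prf1, -2.98 for Il2rb, -2.70 for Il18rap and -2.66 for Gzmb. Tigit, Bcl2, Tnfrsf9 and Cxcr4 followed at -2.03, -1.84, -1.82 and -0.82. Of the subset genes, Cd207 (-1.79), Cd8a (-1.66), Itgae (-1.65), Irf8 (-1.53), Btla (-1.17) and the pDC gene Siglech (-1.42) were more negative, while Clec7a (1.71), Clec4a4 (1.21) and Clec12a (1.05) were more positive. 

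The most negative value belonged to Apol7c, at -4.65, and the most positive to Adamdec1, at 3.37, Cygb, at 3.23, Mmp12, at 2.92, Vsx1, at 2.79, and Olfr111, at 2.74. Clnk had -2.30, Ccl22 -1.80, Dgkk -1.63, P2ry14 -1.15 and Ccl19 -1.14. Pla2g7 had 1.77, Zfp189 1.47, Hmgcs1 1.22, Il6ra 1.11, Fgfbp3 1.02, Sqle 0.99, Cd70 0.98, Pla2g4a 0.82, Idi1 0.81 and Tnip1 0.56. Under at least 1 alternative the strain difference no longer passed for Btla, Clec12a, Clec4a4, Cxcr4, Fgfbp3, Idi1, Itgae, P2ry14, Pla2g4a and Tnip1.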

How the results depend on the processing

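The counts after CpG in B6 were within 1.5 times the reported ones under the alternatives tried, except with median centring, which gave 2512 higher and 1813 lower genes. Centring also gave 991 upward changes with CpG. Array weights, whose estimation stopped short of convergence, gave 1442 downward changes, 2623 genes higher in NOD, and 837 more positive and 996 more negative strain differences; a fit of only the groups compared gave 1302 downward changes, 975 higher and 1585 lower genes in NOD, and 142 and 124 strain differences. The weight of replicate 2 of NOD CD8+ cDC after CpG was 12.9, against 0.154 and 0.392 for its partners. Leaving out single arrays gave 1194 to 1368 higher and 1896 to 2839 lower genes after CpG in B6 (293 to 340 and 425 to 676 at least 2-fold), 848 to 956 and 1056 to 1232 under PBS, 473 to 629 upward and 536 to 1114 downward changes, 1351 to 1717 and 1956 to 3125 genes in NOD, and 220 to 387 and 198 to 674 strain differences; 536 came without replicate 1 of B6 CD8+ cDC after CpG and 674 without replicate 1 of NOD CD8+ cDC. With the replicate number as a fixed block, 1572 genes were higher and 3042 lower after CpG, and as a random block 1557 and 2974. The list counts that the block moved by over 1.5 times are given with those lists. Signal near the array median limits which genes could be tested. Differences of 0.5 were often not recovered in simulated data, in which far fewer genes differed than in the measured data. The cause of these shifts was not tested.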
